A study of Mus musculus with 9 samples.

Results

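Unexposed day 4 embryoid bodies (EBs) made up the control group of a silver toxicity study in mouse embryonic stem cells (ESCs), and they are described here without any comparison with the exposed groups. The members are the 3 arrays that the sample labels give as unexposed controls, of 9 arrays in all. The other 6 arrays, used below only for the spread within a group and for the range of the sex-linked genes, are 3 of EBs kept for 24 h with silver nanoparticles (AgNPs) of 20 nm at 5.0 µg/ml and 3 of EBs kept as long with silver ions (Ag+) at 5.0 µg/ml. All 9 came from 1 commercial ESC line of the C57BL/6 strain, grown without feeder cells on gelatin in a medium with leukemia inhibitory factor (LIF), BMP-4 and an inhibitor of GSK3b. EBs were then formed in hanging drops of basal medium without these additions until day 3, and the controls were kept for another 24 h with no silver, to day 4. The labels call the 3 arrays biological replicates. The line is a single one, so the spread below is between arrays of separate EB cultures of that line. With 1 array per culture, differences between cultures cannot be told from those of RNA preparation, hybridisation or array.

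RNA was hybridised to the Affymetrix Mouse Gene 2.0 ST array, and the deposited signal is on the log2 scale after RMA (background correction, quantile normalization and median polish), so that 1 unit is a 2-fold difference. Of 41345 probe sets, 25341 carried at least 1 gene name, and 23521 of these named a single gene. The 3 control arrays had medians of 5.04 to 5.08 over the named probe sets and correlated with each other at 0.994 to 0.996 across them. Control replicate 3 stood farthest from the others by a small margin, with a median absolute difference of 0.107 from the mean of the other 2 arrays, against 0.102 for replicate 1 and 0.083 for replicate 2, and the counts that rest on replicate 3 or replicate 1 are given below without them as well. Probes differ in how strongly they bind their targets, so a rank here is a rank of signal and does not order the amounts of RNA of different genes. In RNA of whole EBs, fewer cells of a type and less RNA per cell cannot be told apart.

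An EB is a ball of ESCs that starts to differentiate when pluripotency factors are taken out of the medium. The outer cells form primitive endoderm, the source of visceral and parietal endoderm, while the inner cells pass through an epiblast-like state. Cells that respond to Wnt, BMP and Nodal signals then enter a program resembling the primitive streak of the gastrulating embryo, from which mesoderm and definitive endoderm arise, and cells shielded from these signals take the neural path.

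Several of the genes that varied most between the replicates encode microRNAs (miRNAs) known from pluripotent cells, and a promoter is shown with them. Of 36 miRNA genes looked up, 32 had a mature sequence in RefSeq (build GRCm38.p6). Most of the sequences below belong to miRNA genes with signal well above background or with a large spread. Also shown are 2 members of the Mir290 cluster, miR-294-3p and miR-295-3p, which share a seed with some of these. Their genes are measured here by a probe set shared with other members. Let-7g is shown as one near background. Not every such gene is shown: Mir18 also had signal well above background, but its sequence is not printed. The seed (bases 2 to 8), which pairs with target mRNAs, is in capitals. The first is encoded at chr3:127545275-127545297, the fourth at chr3:127545779-127545800, both on the plus strand, and miR-363-3p at chrX:52741697-52741718 on the minus strand.
mmu-miR-302b-3p: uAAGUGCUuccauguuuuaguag
mmu-miR-302d-3p: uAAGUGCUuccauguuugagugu
mmu-miR-302c-3p: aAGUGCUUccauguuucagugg
mmu-miR-367-3p: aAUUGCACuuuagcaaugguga
mmu-miR-363-3p: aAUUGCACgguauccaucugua
mmu-miR-18b-5p: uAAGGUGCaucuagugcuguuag
mmu-miR-290a-3p: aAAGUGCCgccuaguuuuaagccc
mmu-miR-294-3p: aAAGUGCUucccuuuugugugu
mmu-miR-295-3p: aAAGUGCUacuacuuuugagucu
mmu-let-7g-5p: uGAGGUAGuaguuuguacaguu
The seed AAGUGCU is shared by 5 of the mature sequences looked up, 2 from the Mir302 cluster and 3 from the Mir290 cluster, and miR-302c-3p as listed starts 1 base later in the same run. For Mir302a only miR-302a-5p was available, so its 3p sequence is neither printed nor counted here. miR-367-3p and miR-363-3p, from clusters on different chromosomes, share the seed AUUGCAC with miR-92a-3p.

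Nanog, a homeodomain factor of the pluripotent epiblast, had the widest range of the protein-coding genes on the lists described below, and its promoter is known to carry a composite element for SOX2 and OCT4. The window from RefSeq at chr6:122707239-122707538 (GRCm38.p6, plus strand) is printed with that element in capitals.
Nanog promoter: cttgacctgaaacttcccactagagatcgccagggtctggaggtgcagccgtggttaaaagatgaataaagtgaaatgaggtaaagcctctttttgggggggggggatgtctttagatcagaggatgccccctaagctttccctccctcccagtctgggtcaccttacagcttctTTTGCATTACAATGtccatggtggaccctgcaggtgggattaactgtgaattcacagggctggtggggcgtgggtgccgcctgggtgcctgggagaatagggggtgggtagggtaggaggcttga
The letters searched, CATTGTNATGCAAA on both strands, were taken from what is known of this element, so the match in Nanog was not independent of the choice. They occurred in 2 of 32851 promoter windows of 300 bases (0.00609%), and both windows were overlapping ones of Nanog. The octamer half-site ATGCAAA, which the composite contains, was in 4.63% of all windows, and the SOX half-site CATTGT, also contained in it, in 12.6%. Of the 26 genes with a promoter window that varied 2-fold or more between the control replicates, 3 had the octamer letters (Egln3, Nanog and Pim2) and 7 the SOX letters, where 1416 and 3863 of all 27025 genes with a window had them. Nanog is in both counts, and the letters were taken from its element, so its place in them was fixed by that choice. Of the 7, 3 are Pilra, Pilrb1 and Pilrb2, which are related neighbours and may not be independent. These are matches of letters in a window and not measured binding.

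Background was measured on the same arrays. Olfactory and vomeronasal receptor genes, which serve in sensory neurons of the nose, had 1405 probe sets with a median signal of 2.45, and the 95th percentile of their control means, 4.41, was taken as the background limit. A probe set was called near background when its control mean was at or under this limit, well expressed when each of the 3 control arrays was at least 1 log2 unit above it (5.41), and variable when its mean was above the limit and its highest and lowest control arrays differed by at least 1 log2 unit, a 2-fold difference. By these rules 9708 of the 25341 named probe sets (38.3%) were near background, 10841 (42.8%) were well expressed, 4792 (18.9%) lay between, and 46 (0.182%) were variable. The control means ran from 1.45 to 12.96, with a median of 5.06. By construction 71 of the receptor probe sets lay above the limit, and 16 of them were well expressed, led by Vmn1r233 at 11.57, so a single signal above the limit does not by itself establish that a gene was transcribed.

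**Figure D1:**
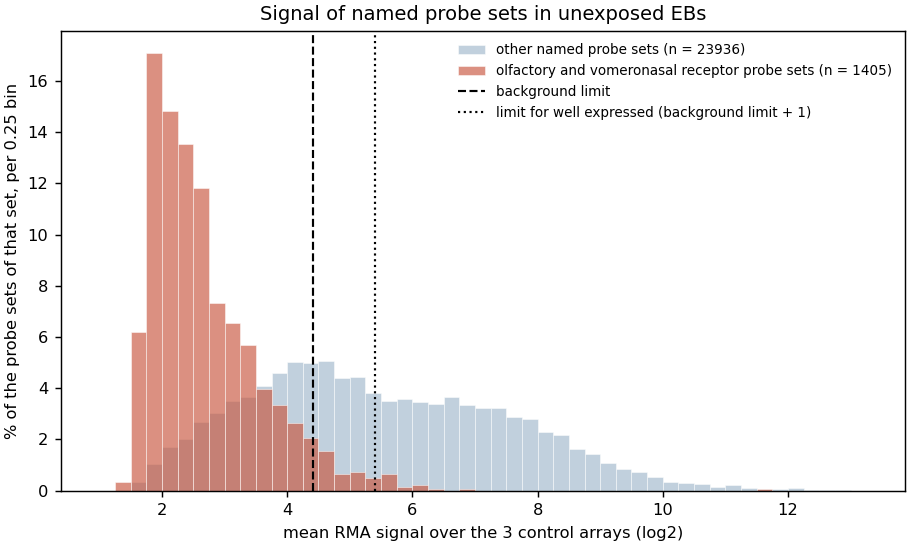
Histogram of the mean RMA signal (log2) over the 3 control arrays, as a percentage of the probe sets of each set per bin, for the 1405 chemosensory receptor probe sets and for the other named probe sets. The receptor probe sets peak near 2 and the dashed line at 4.41 marks their 95th percentile, while the other named probe sets spread on to 12.96.

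Most of the highest signals belonged to products that any growing cell makes in bulk. Rn7sk, a small nuclear RNA that restrains transcription elongation, had 12.95, 12.96 and 12.97 on replicates 1, 2 and 3. Of the highest 15 probe sets of a single gene, 5 belonged to mitochondrial genes of the respiratory chain, namely ND4 (12.84), COX1 (12.65), ND1, CYTB and ND5. The translation factors Eif4a1 (12.70) and Eef1a1 (12.40), the ribosomal protein genes Rpl21 and Rps6 and the glycolytic enzyme gene Gapdh (12.29) were also among the 15. So were Mir5099, a miRNA gene, at 12.81, and Erdr1, at 12.55 and 12.24 on separate probe sets. All 14 housekeeping genes measured were well expressed, from 6.28 for Gusb to 12.40 for Eef1a1, with a median range between the replicates of 0.10, against 0.18 over all genes above the limit. Actb was at 9.99, 9.95 and 9.93. The housekeeping gene that spread most was Pgk1, a glycolytic enzyme gene, at 11.18, 10.78 and 10.49.

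Each gene is described below by a single probe set: of those naming that gene alone, the one whose control mean was highest. On that basis 9792 of 22180 genes (44.1%) were well expressed, 8335 (37.6%) were near background and 38 (0.171%) were variable. These shares are what the counts of each list are set beside. The 32 lists hold 617 genes, of which 555 were measured by a probe set of their own. Of these, 321 were well expressed, 109 were near background and 11 were variable.

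The core pluripotency genes kept clear signal on day 4, although 3 of them differed more than 2-fold between the replicates. Of 18 measured, 13 were well expressed and 2 were near background, with a median of 6.02. Pou5f1 (OCT4), the POU factor that pluripotency requires, was at 6.22, 6.03 and 6.03. Its partner Sox2 was at 7.87, 7.59 and 6.99, lowest on replicate 3. Nanog (probe set 17462694) was at 8.50, 8.25 and 7.09, a mean of 7.95 ± 0.75 (SD, n = 3), with replicate 3 apart from the other 2. The signal of Nanog stood above that of 87.7% of the named probe sets in spite of this spread. L1td1, an RNA-binding protein gene of pluripotent cells, was at 7.57, 7.24 and 6.29, and Utf1, a chromatin factor gene of undifferentiated cells, at 6.79, 7.09 and 5.84. Replicate 3 was the lowest array for these genes too.

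The highest of the list were Trim28, a corepressor of retroviral elements, at 10.60, and Tdgf1, the Nodal coreceptor Cripto, at 10.96, 10.70 and 10.14. Sall4, a zinc finger factor, had a mean of 9.94 and Lin28a, which blocks let-7 processing, a mean of 9.26, each within 0.23 between replicates. Dppa5a (4.21) and Nr0b1 (4.13) were near background, and Zfp42, Dppa4 and Gdf3 lay between the 2 limits. Across the 16 core genes above the limit, replicate 3 was the lowest array for 13, while over all genes above the limit replicate 3 was lowest for 44.4%.

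Markers of the naive state, the form of pluripotency that LIF and the GSK3b inhibitor hold, were weaker. Of 20 measured, 9 were well expressed and 4 near background, a share well expressed (45.0%) close to the 44.1% of all genes, and none was variable. Klf4 was steady at 5.94, 6.05 and 5.98, whereas Zfp42 (REX1) was at 5.16, 5.15 and 4.85 and Esrrb, an orphan nuclear receptor gene, at 4.26, 4.46 and 4.64, around the background limit. Prdm14 (3.94), Tcl1 (4.02), Dppa3 (4.07) and Fbxo15 (4.34) were near background. The members with high signal are also used by other cells. They were Tbx3 (8.75), the LIF receptor genes Lifr (8.41) and Il6st (8.23), and Klf5 (7.81). Tet2, a methylcytosine oxidase gene, had its lowest signal on replicate 3, at 6.57, 6.46 and 6.07, and Tfcp2l1, a transcription factor gene of the naive network, was between the limits at 4.81, 5.27 and 5.12.

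Genes of the formative and primed epiblast, the state that follows the naive one, had the fuller set. Of 21 measured, 19 were well expressed and none was near background, with a median of 7.82. Fgf5, the ligand that marks the postimplantation epiblast, was at 8.69, 8.23 and 7.74. Otx2, a homeodomain factor of the same stage and later of the head, was at 7.96, 7.48 and 6.87 and counted as variable, as did the zinc finger gene Zic5 at 7.37, 7.12 and 6.29. For these 3 genes the arrays had the same order, replicate 1 above 2 above 3. Pou3f1 (OCT6) was nearer the limit at 5.73, 6.02 and 5.41. The de novo methyltransferase gene Dnmt3b was at 10.50, 10.49 and 10.20, and the adhesion genes Cdh1 and Cldn6 had means of 9.59 and 9.36. Tead2, a factor gene of the Hippo pathway, hardly differed between arrays at 9.39, 9.43 and 9.42. Replicate 3 was the lowest array for 19 of the 21, against 44.4% of all genes above the limit.

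Signal of the miRNA genes differed between clusters and within some of them. Mir302b was at 7.91, 7.51 and 7.03, Mir302c at 7.96, 7.63 and 6.82 and Mir302a at 7.58, 7.24 and 6.51, while Mir302d was at 6.91, 6.71 and 6.29. Mir367, in the same cluster, was at 6.16, 5.54 and 4.53, the widest range (1.62, or 3.08-fold) of any single-gene probe set above the limit. The order of the arrays was replicate 1, 2 and then 3 for each of the 5 precursors, which are cut from a common transcript and are not independent of each other. Mir290a, of the cluster that is abundant in undifferentiated ESCs, was at 6.56, 6.45 and 5.61, and a probe set that names 6 of its neighbours together with D7Ertd143e was at 6.57, 6.33 and 5.89. Let-7 genes, whose mature products rise with differentiation, were at or near background for Mirlet7g (2.95), Mirlet7c-1 (2.42) and Mirlet7b (2.15), and between the limits for Mirlet7a-1 (4.97), Mirlet7i (4.95) and Mirlet7d (4.53). The array reports precursor or host transcript signal here and does not measure mature miRNA. Of 17 miRNA genes on the list, 6 were well expressed (35.3%) and 4 near background (23.5%), against 44.1% and 37.6% of all genes, and 3 were variable. Replicate 3 was lowest for 12 of the 13 above the limit, against 44.4% of all genes above the limit.

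Genes of DNA methylation and chromatin were high. Of 17 measured, 16 were well expressed and none was near background, with a median of 8.59, led by Trim28, Dnmt3b, the remodeller gene Smarca4 (9.61) and the H3K27 methyltransferase gene Ezh2 (9.28). Tet1, which oxidises methylcytosine, was at 8.57, 8.48 and 8.18, and Jarid2, a polycomb cofactor gene, at 8.79, 8.62 and 8.36. Replicate 3 was the lowest array for 15 of the 17, against 44.4% of all genes above the limit. Dnmt3l, a cofactor of the de novo enzymes, was lowest at 5.25. By contrast, genes of the 2-cell-like state, a rare totipotent-like state of ESC cultures, were at background: 10 of 12 were near it and none was well expressed. Zscan4c was at 3.97, 3.82 and 3.37, Zfp352 had a mean of 3.20 and Zscan4d one of 4.45. The highest of this list was Gm4340, a member of a repeated gene family, at 5.05, 5.28 and 5.46. Further Zscan4 copies share probe sets with each other, and both such probe sets were at or under 3.30.

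**Figure D2:**
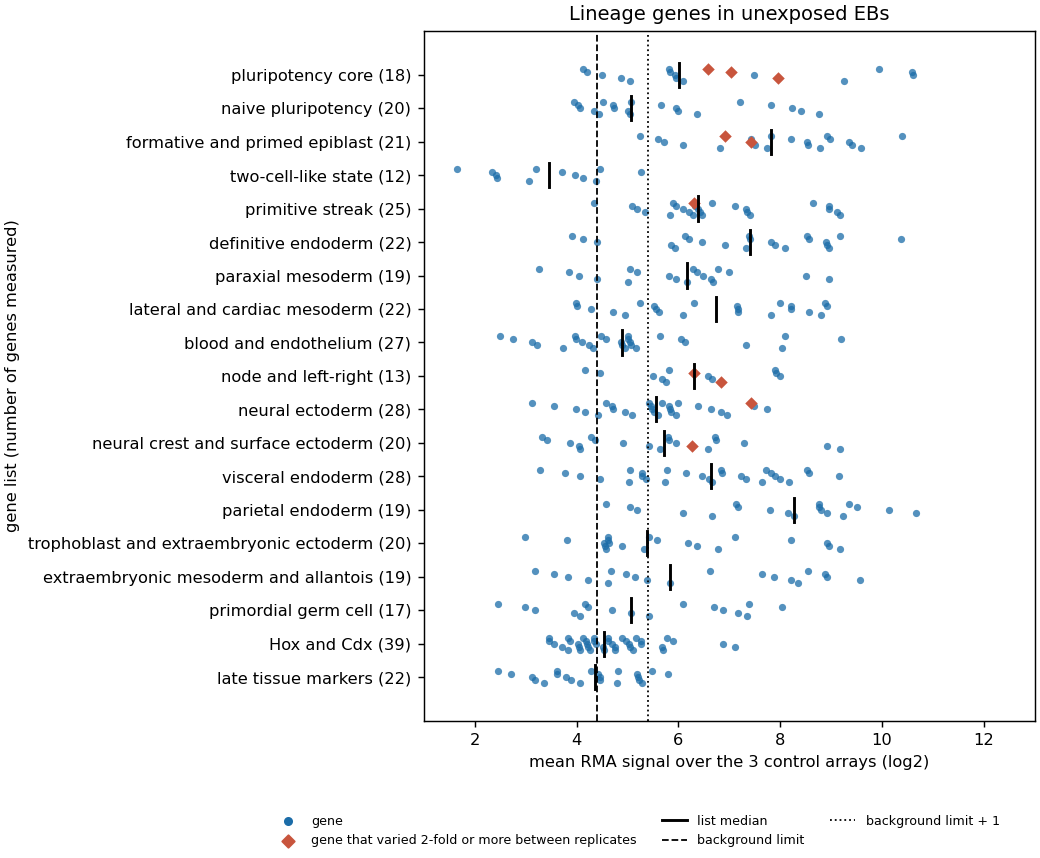
Mean RMA signal (log2) over the 3 control arrays for each gene of 19 lineage lists, 1 point per gene, with the list median as a bar and genes that varied 2-fold or more between replicates as diamonds. The dashed line is the background limit (4.41) and the dotted line the limit for well expressed (5.41); epiblast, streak, endoderm and extraembryonic endoderm lists have medians to the right of both lines, and the Hox and late tissue lists straddle the background limit.

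Primitive streak genes were widely on. Of 25 measured, 21 were well expressed and 1, Cdx1 (4.34), was near background, with a median of 6.38. Mixl1, a homeobox factor of nascent mesendoderm, was at 8.92, 9.39 and 9.22. Eomes, a T-box factor of the anterior streak, was at 9.29, 9.11 and 8.49, and Lhx1, a LIM homeobox gene of the anterior mesendoderm, at 9.11, 8.68 and 8.15. Both were lowest on replicate 3, whereas Cdx2, a posterior homeobox gene, had the opposite order at 6.68, 7.10 and 7.53. Evx1, of the proximal and posterior streak, was at 7.32, 7.61 and 7.30, Fgf8 at 7.77, 7.18 and 7.12 and Wnt3 at 7.44, 7.39 and 7.15. The signal antagonist gene Frzb (9.12) and the Wnt amplifier gene Rspo3 (8.95) were also among the highest. Mesp1, which marks the first cardiac and cranial mesoderm, lay between the limits at 5.67, 5.27 and 5.08, and Wnt3a did so at 5.09. Brachyury (T), the classical streak marker, was not analysed here.

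Definitive endoderm genes stood among the strongest lineage genes. Of 22 measured, 19 were well expressed and 3 were near background, with a median of 7.40. Sox17, an endoderm determining factor gene, was at 7.35, 7.36 and 7.26, Foxa2, a forkhead pioneer factor gene, at 8.10, 7.97 and 7.63, and the chemokine receptor gene Cxcr4 at 8.91, 9.01 and 8.76. Trh, a hormone precursor gene, had the highest signal of the list at 10.63, 10.40 and 10.07. Cer1, a secreted inhibitor of Nodal, BMP and Wnt ligands, spread nearly 2-fold at 7.00, 6.36 and 6.02. Most of these genes, including Sox17, Foxa2, Gata4 (7.82) and Gata6 (8.56), are used by extraembryonic endoderm too, so the list does not separate those cell types. Pyy (4.12), Nepn (3.91) and Sfrp5 (4.39), which mark later or regional gut endoderm, were near background.

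Mesoderm genes ranged from strong in early lateral mesoderm to background in differentiated muscle. Among 22 lateral and cardiac genes, 14 were well expressed and 3 were near background, and the highest were Bmp4 (8.91), Foxf1, Pdgfra (8.80) and Gata6. Foxf1, a forkhead gene of splanchnic and extraembryonic mesoderm, was at 8.33, 9.00 and 9.30, and Hand1, a bHLH factor gene of the same tissues and of the heart, at 7.72, 8.41 and 8.53. Both were lowest on replicate 1. Nkx2-5, of cardiac progenitors, was at 6.12, 6.36 and 6.43, and Msx2, a BMP target gene, spread from 6.58 to 7.56. The contractile genes Myh6 (4.01) and Actc1 (4.29) and the heart field gene Tbx5 (3.99) were near background, while Tnnt2 was at 5.61 and Myl7 at 5.52.

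In paraxial mesoderm, 12 of 19 genes were well expressed and 3 were near background. Msgn1, which drives presomitic mesoderm, was at 6.19, 6.61 and 6.65, and its upstream factor gene Tbx6 was nearly level at 6.31, 6.32 and 6.25. Tcf15, a somite gene, was between the limits at 5.00, 5.14 and 4.87. Genes of more mature somites, Pax1 (4.05), Tbx18 (3.85) and Meox2 (3.27), were near background, and Meox1 had a mean of 4.41 with replicate 1 at 3.86 below the limit. The order of the arrays differed between members. Aldh1a2, which makes retinoic acid in trunk mesoderm, was lowest on replicate 1 at 6.27, 6.57 and 7.11, as was Ptk7, a planar polarity receptor gene, at 8.28, 8.59 and 8.64. The forkhead gene Foxc1 (7.31, 6.99 and 6.68) and the Notch ligand gene Dll3 (7.01, 6.84 and 6.47) were lowest on replicate 3.

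Blood and endothelium genes were spread over all 3 classes. Of 27 genes, 7 were well expressed and 10 were near background (37.0%, close to the 37.6% of all genes). Kdr (FLK1), the VEGF receptor gene of the mesoderm that gives rise to both, was at 9.19, 9.39 and 9.03, and Flt1 and Kit had means of 8.09 and 8.04. Of the transcriptional regulators, Runx1 (6.05) and Lmo2 (5.63) were well expressed, and others were between the limits, with Etv2 at 4.85, 4.98 and 4.82 and Tal1 at 4.76, 4.92 and 4.92. The haematopoietic factor gene Gata2 was at 4.27, 4.68 and 4.51, and Itga2b (CD41), an early blood surface marker, at 4.82, 4.72 and 5.32. The embryonic globin genes Hbb-bh1 (2.49), Hba-x (2.75) and Hbb-y (3.13) and the endothelial genes Tek (3.99), Erg (4.11) and Sox18 (3.74) were near background.

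Node and left-right genes were mostly detected, and 2 of 13 were variable. Of the 13, 10 were well expressed and 1, Shh (4.16), was near background. Pkd1l1, a channel subunit gene of the node cilia, was at 7.42, 6.82 and 6.28, and Lefty2, a secreted Nodal inhibitor, was at 6.75, 6.48 and 5.70. Foxj1, the master gene of motile cilia, followed the same order at 6.09, 5.75 and 5.43, and so did Noto, a node homeobox gene, at 4.76, 4.58 and 4.04. Lefty1 was at 5.77, 5.85 and 5.39 and Chrd, a BMP antagonist gene, was level at 5.84, 5.77 and 5.84. The highest of the list were Rfx3, a cilia factor gene, at 8.16, 7.91 and 7.91, and Cfc1, a Nodal coreceptor gene, at 8.04, 7.98 and 7.72. Replicate 3 was lowest for 9 of the 12 above the limit, against 44.4% of all genes above the limit.

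Of 28 neural ectoderm genes measured, 15 were well expressed (53.6%) and 4 were near background (14.3%), against 44.1% and 37.6% of all genes. Their median was 5.56, and the highest 3, Zic2 (7.73), Sox2 and Otx2, also belong to the epiblast or pluripotency lists. Sox1, the first gene restricted to the neural plate, was at 5.39, 5.55 and 5.35, at the edge of the upper limit, and Pax6, of the later neural tube and eye, was at 4.36, 4.51 and 4.42, at the background limit. Nes, an intermediate filament gene of progenitors, was at 6.57, 6.26 and 6.31, and Olig2, a bHLH gene of the ventral neural tube, spread from 6.26 on replicate 1 to 5.36 on replicate 3. En1 (3.99), Pax2 (3.55), Neurod1 (4.17) and Hesx1 (3.12) were near background. In neural crest and surface ectoderm, 10 of 20 genes were well expressed and 7 near background, among them the defining genes Sox10 (4.36), Tfap2a (4.07) and Trp63 (3.43), while the epithelial keratin genes Krt18 (9.18) and Krt8 (8.92) were high. Grhl3, of the surface ectoderm, was at 7.25, 7.22 and 7.38, and Dlx3, a homeobox gene of ectoderm, at 5.40, 5.61 and 5.92. Snai2, a repressor gene of migrating crest and mesoderm, was at 5.77, 6.20 and 6.85, lowest on replicate 1.

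Most genes of the extraembryonic endoderm lists were well expressed, but several of them are shared with other cell types. Of 28 visceral endoderm genes, 19 were well expressed and 3 were near background. Cubn, the endocytic receptor cubilin, was at 9.43, 9.10 and 8.96, and its partner Lrp2 (megalin) was at 8.36, 8.01 and 7.64. The transport protein gene Ttr was at 6.82, 6.71 and 7.02, Hnf4a, a nuclear receptor that governs its targets, was just under the upper limit at 5.26, 5.46 and 5.38, and Afp, a later marker, was at 4.53, 4.25 and 4.58. The zinc importer gene Slc39a8 (8.55, 8.53 and 8.49) and the endocytic adaptor gene Dab2 (8.24, 8.17 and 8.10) were high and steady. Apoe (7.72) and Apob (6.61) were well expressed, and Apoa1 (5.29) and Apoa4 (5.29) lay between the limits. Alb (3.28), Apoc2 (3.77) and Apom (4.07) were near background. Of 19 parietal endoderm genes, 16 were well expressed and none was near background, with a median of 8.27. Sparc was at 9.21, 9.28 and 9.21 and Lama1 at 8.98, 8.78 and 8.51, and Cd24a, a surface glycoprotein gene, led the list at 10.64, 10.61 and 10.73. The basement membrane genes Lamb1 (9.50), Nid2 (9.35), Lamc1 (8.92) and Col4a1 (7.81) were also high. Plat and Pth1r were well expressed too, while Thbd lay between the limits at 4.64, 4.30 and 4.81. Many genes of this list are expressed by mesenchyme as well.

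Trophoblast genes had a lower median (5.38) than the visceral (6.64) and parietal (8.27) endoderm lists, but not a lower one than all genes (5.12). Of 20 measured, 8 were well expressed (40%) and 2 near background (10%), against 44.1% and 37.6% of all genes. The well expressed ones were led by Krt18, Eomes, Krt8 and Hand1, which also belong to endoderm, streak or mesoderm lists. Elf5, the gatekeeper of the trophoblast lineage, was near background at 3.66, 3.80 and 3.97, as was Tpbpa at 2.98, and Gata3 was at 5.39, 5.52 and 5.81. In extraembryonic mesoderm and allantois, 10 of 19 genes were well expressed (52.6%) and 4 near background (21.1%), against 44.1% and 37.6% of all genes. Phlda2, an imprinted growth gene of the placenta, was at 9.21, 9.67 and 9.84, Bmp4, the ligand made by this tissue, at 8.40, 9.08 and 9.27, and Igf2, an imprinted growth factor gene, at 7.91, 8.40 and 8.74. Replicate 1 was lowest for these 3 genes and for 11 of the 15 above the limit, against 34% of all genes above the limit. The allantois genes Tbx4 (5.38) and Vcam1 (4.68) were between the limits.

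Primordial germ cell genes followed the same division between shared and restricted members. Of 17 measured, 7 were well expressed (41.2%) and 7 near background (41.2%), shares close to the 44.1% and 37.6% of all genes. Prdm1 (BLIMP1) was at 7.46, 7.46 and 7.24, but visceral and definitive endoderm also use it, and Nanos3 lay between the limits at 4.96, 5.28 and 4.96. Ifitm3 (Fragilis) was at 6.95, 7.20 and 7.38, and Tfap2c, of germ cells and trophoblast, at 5.54, 5.57 and 5.18. Dazl (3.17), Ddx4 (4.16), Prdm14 and Dppa3 were near background.

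Of the Hox and Cdx genes, which pattern the body axis, 5 of 39 were well expressed and 18 were near background. Cdx2 and Hoxb1, the latter among the first Hox genes activated in the streak, led at means of 7.11 and 6.88, followed by Hoxb9 (5.90), Hoxd1 (5.77), Hoxc8 (5.70) and Hoxa4 (5.69). Hoxb1 was at 6.67, 6.90 and 7.07 and Hoxc8 at 5.22, 5.73 and 6.15. Replicate 1 was the lowest array for 18 of the 21 genes above the limit and replicate 3 the highest for 16, where over all genes above the limit the shares were 34% and 26.7%. Hox genes of a cluster overlap and are transcribed together, so these are not independent counts.

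Genes of mature tissues had a median of 4.36, just under the background limit. Of 22, 2 were well expressed, Acta1 (5.80) and Syp (5.47), and 11 were near background, including Ptprc (2.71) of blood cells and Ins2 (2.46) of pancreatic islets, while Ckm (5.21) and Gfap (4.79) were between the limits. Of 11 genes that mark feeder fibroblasts, 1, Pdgfrb (6.70), was well expressed, and Dcn (3.28), Lum (2.70) and Fap (3.08) were near background. Thy1 was at 4.99, 5.49 and 5.60 and Col1a1 at 5.13, 4.94 and 5.35.

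The signalling lists hold ligands, receptors, transducers and targets, and their share of well expressed genes ran from 50.0% for retinoic acid to 96.0% for Notch. In the Nodal and activin pathway, 19 of 25 genes were well expressed and 2 near background. The ligand gene Nodal was at 6.81, 6.69 and 6.46, and of the other ligand genes Inhba was near background (4.18) and Gdf3 just above the limit (4.50). The coreceptor gene Tdgf1 (10.60), the receptor gene Acvr2b at 7.61, 7.55 and 7.43, the transducer genes Smad4 (9.61) and Smad2 (8.41) and their DNA-binding partner gene Foxh1 (9.37) were high. Acvr1c, a further receptor gene, was near background at 2.95. The feedback inhibitors Lefty2 and Cer1 spread more between replicates, as given above, than Smad4, which ranged over 0.10. Fst, the gene of the activin inhibitor follistatin, also had its lowest signal on replicate 3, at 8.46, 8.26 and 7.75.

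In the BMP pathway, 23 of 27 genes were well expressed and 1, the receptor gene Bmpr1b (3.03), was near background. The ligand genes were Bmp4 (8.91), Bmp7 (8.55), Bmp5 (7.88) and Bmp2 (6.83). Among receptors and transducers, Bmpr1a was at 7.98, 7.91 and 7.84, Bmpr2 had a mean of 9.39 and Smad1 was at 7.66, 7.85 and 7.57. Of the target genes, Id1 was at 7.65, 7.74 and 7.79, Id2 at 7.54, 7.73 and 8.07, and Id3 had a mean of 7.71. Msx2 and Bmp4 had the widest ranges of the list (0.98 and 0.87), and for both replicate 1 was the lowest array.

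In the Wnt pathway, 35 of 43 genes were well expressed and 2 were near background, Sfrp5 and the receptor gene Fzd10 (4.11). Ctnnb1, the β-catenin gene, was at 10.11, 10.08 and 9.94, and Gsk3b, the kinase that marks β-catenin for destruction, had a mean of 9.65. The receptor gene Fzd7 was at 8.78, 8.79 and 8.39, and the target gene Axin2 was at 7.76, 7.98 and 8.11. Nkd1, a feedback inhibitor and target, was also lowest on replicate 1 at 7.08, 7.34 and 7.70, and so was the nuclear partner gene Lef1 at 8.72, 9.09 and 9.11. The secreted antagonist gene Sfrp1 (8.50, 8.38 and 7.88) and the receptor gene Fzd8 (6.75, 6.57 and 6.14) had the reverse order. Of the ligands, Wnt3 led at 7.33, followed by Wnt8a, which spread from 7.03 on replicate 1 to 6.18 on replicate 3, and Wnt5a (6.38). Wnt3a, Wnt5b, Wnt6, Wnt7b and Wnt10a lay between the limits.

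In the FGF pathway, 23 of 28 genes were well expressed and 1, Fgf2 (4.26), was near background. The receptor gene Fgfr1 was at 7.68, 7.69 and 7.97, Fgfr2 had a mean of 6.36, and Fgfr3 (5.20) and Fgfr4 (5.22) lay between the limits. The ligand genes with most signal were Fgf5, Fgf15 (7.50) and Fgf8, and the feedback genes Dusp6 (8.91), Dusp4 (8.54) and Spry4, the last at 7.59, 7.66 and 7.44, were well expressed. Of the 27 above the limit, replicate 3 was lowest for 17, where it was lowest for 44.4% of all genes above the limit.

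Notch genes were well expressed in 24 of 25 cases, with Dll4 (4.02), the endothelial ligand gene, near background. Notch1 was at 7.30, 7.27 and 7.23, the DNA-binding mediator gene Rbpj at 8.11, 7.95 and 7.90, and the target gene Hes1 at 8.44, 8.21 and 8.15. The ligand gene Dll1 was at 6.23, 5.84 and 5.77, and Jag1 was the most spread of the list, from 7.88 to 7.14. Hey2, a further target gene, was lowest on replicate 1 at 7.19, 7.46 and 7.80. The γ-secretase subunit gene Ncstn (8.66, 8.69 and 8.72) and the protease gene Adam10 (8.64, 8.59 and 8.62) led the list with little spread. In Hedgehog signalling, 13 of 17 genes were well expressed. The ligand genes Shh at 4.03, 4.05 and 4.39 and Dhh (4.02) were near background and Ihh, made by visceral endoderm, was at 6.15, whereas the signal transducer gene Smo (9.00), the receptor gene Ptch1 (8.35), the repressor gene Gli3 (7.56, 7.85 and 7.92) and the effector gene Gli2, at 6.37, 6.61 and 6.53, were well expressed.

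Retinoic acid genes were the sparsest of the pathways, with 9 of 18 well expressed and 3 near background. Cyp26a1, which degrades retinoic acid, was at 8.61, 8.24 and 7.65, and Aldh1a2, which makes it, had the opposite order of arrays, as given above. The receptor gene Rara was at 6.96, 7.02 and 7.14 and Crabp1, a cytoplasmic carrier of the ligand, at 6.54, 6.80 and 6.82. The receptor gene Rarg was level at 6.17, 6.26 and 6.18, while Rarb was between the limits at 4.60. Of 19 cadherin and epithelial-mesenchymal transition genes, all 19 were well expressed. Both Cdh1 (9.70, 9.68 and 9.40), the cadherin of epithelia, and Cdh2 (10.39, 10.38 and 10.34), that of mesoderm and neural cells, were high, with Vim at 9.98, 10.17 and 10.29, Fn1 at 11.80 and Snai1, which represses Cdh1, at 5.84, 6.27 and 6.19. Cdh11, a mesenchymal cadherin gene, was lowest on replicate 1 (8.40, 8.74 and 9.04), and Esrp1, an epithelial splicing factor gene, was lowest on replicate 3 (8.16, 7.80 and 7.58).

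**Figure D3:**
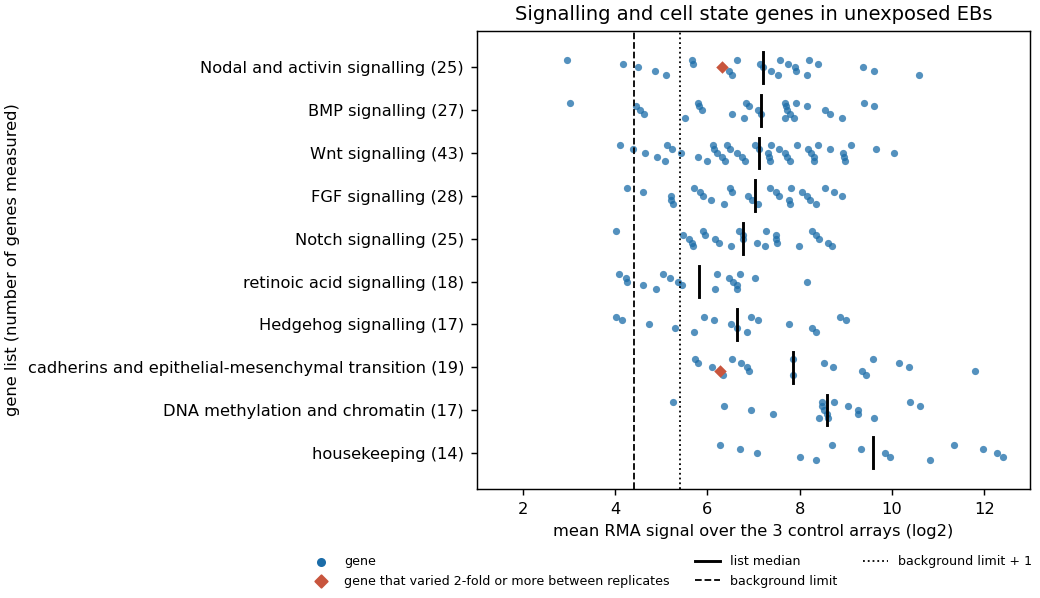
Mean RMA signal (log2) over the 3 control arrays for each gene of 7 signalling pathways and 3 further lists, 1 point per gene, with the list median as a bar, the background limit (4.41) dashed and the limit for well expressed (5.41) dotted. Retinoic acid has the lowest pathway median (5.81), and the 2 diamonds, Lefty2 and Snai2, are the genes that varied 2-fold or more between replicates.

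Variation between the 3 control arrays was small for most genes. Of the 15633 named probe sets above the background limit, 77.5% had a range under 0.3 log2 units, the median range was 0.18 and the 95th percentile 0.52. The 46 variable probe sets rested on few arrays. Replicate 3 was the lowest array for 37 of them and replicate 1 the highest for 35, and replicate 3 was the one farthest from the other 2 for 31, against 13 for replicate 1 and 2 for replicate 2. Without replicate 3 the count was 4, without replicate 1 it was 8 and without replicate 2 it was 42. Within the AgNP arrays the same rule gave 31 variable probe sets, of which 11 were among the 46 (23.9% of the control set and 35.5% of the AgNP set), and within the Ag+ arrays 18, of which 4 were among them (8.70% and 22.2%).

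Nanog spread as widely within the exposed groups as in the controls, with ranges of 1.47 over the AgNP arrays and 1.29 over the Ag+ arrays, and L1td1 (1.39 and 1.12) and Utf1 (1.24 and 0.68) spread there as well. Mir302c, by contrast, had ranges of 0.41 and 0.54, Pkd1l1 of 0.04 and 0.07, and Lefty2 of 0.06 and 0.72. The median range of the 46 was 1.15 in the controls, by which they were chosen, 0.51 within AgNP and 0.47 within Ag+.

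Genes of one kind recurred among the variable probe sets. Egln3, which hydroxylates the hypoxia-inducible factors, was at 7.67, 6.89 and 6.30, and Bnip3, a mitophagy receptor gene, at 7.39, 6.99 and 6.09. Pdk1, a pyruvate dehydrogenase kinase gene, was at 7.19, 6.54 and 6.05. Apln, a vascular peptide ligand gene, was at 6.58, 6.11 and 5.22. All 4 are known to be induced by low oxygen and had the order replicate 1, 2 and then 3. They spread within the AgNP arrays too, with ranges of 1.38, 1.18, 1.16 and 1.14 for Egln3, Bnip3, Pdk1 and Apln. Within the Ag+ arrays their ranges were smaller, at 0.35, 0.35, 0.03 and 0.42. A list of genes of the low-oxygen response was put together after these values had been seen, so it is a description. Of its 27 genes measured, 23 were well expressed and these 4 were variable. Adm was near background (4.07), and Car9 lay between the limits with little spread at 5.39, 5.27 and 5.23. Replicate 1 was the highest array for 23 of the 26 above the limit, where it was highest for 40.7% of all genes above the limit. Replicate 3 was the lowest for 24 of the 26, against 44.4% of all genes above the limit. The arrays lay at 0.30, 0.00 and -0.28 from the gene means at the median. The glucose transporter genes Slc2a1 (11.45, 11.37 and 11.20) and Slc2a3 (10.66, 10.37 and 10.11) and the lactate dehydrogenase gene Ldha (8.47, 8.19 and 7.72) were among them. Whether this order of the arrays has a part in the order of the pluripotency genes was not tested.

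The genes with the reverse order were fewer. Unc5c, a netrin receptor gene, was at 7.24, 8.06 and 8.51. Fendrr, a long noncoding RNA divergent from Foxf1, was at 5.18, 5.74 and 6.34, and Ereg, a ligand of the EGF receptor, was at 4.33, 4.67 and 5.38. Replicate 1 was lowest and replicate 3 highest for these genes, as for Snai2, Foxf1 and most of the extraembryonic mesoderm list. Small RNA and repetitive or duplicated genes made up much of the rest. Mir18b (6.64, 6.34 and 5.49) and Mir363 (5.94, 5.52 and 4.79) lie in 1 cluster on the X chromosome. The probes of Pilra, Pilrb1 and Pilrb2 may not be specific, and the last of these was at 5.44, 4.51 and 3.85, below the limit on replicate 3. Olfr1487, a receptor gene of the kind that set the limit, was at 4.16, 4.35 and 5.39. Others among the 20 widest were Mir103-2, Mir3473c, Enpp3, Rabggtb and Zfp97.

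**Figure D4:**
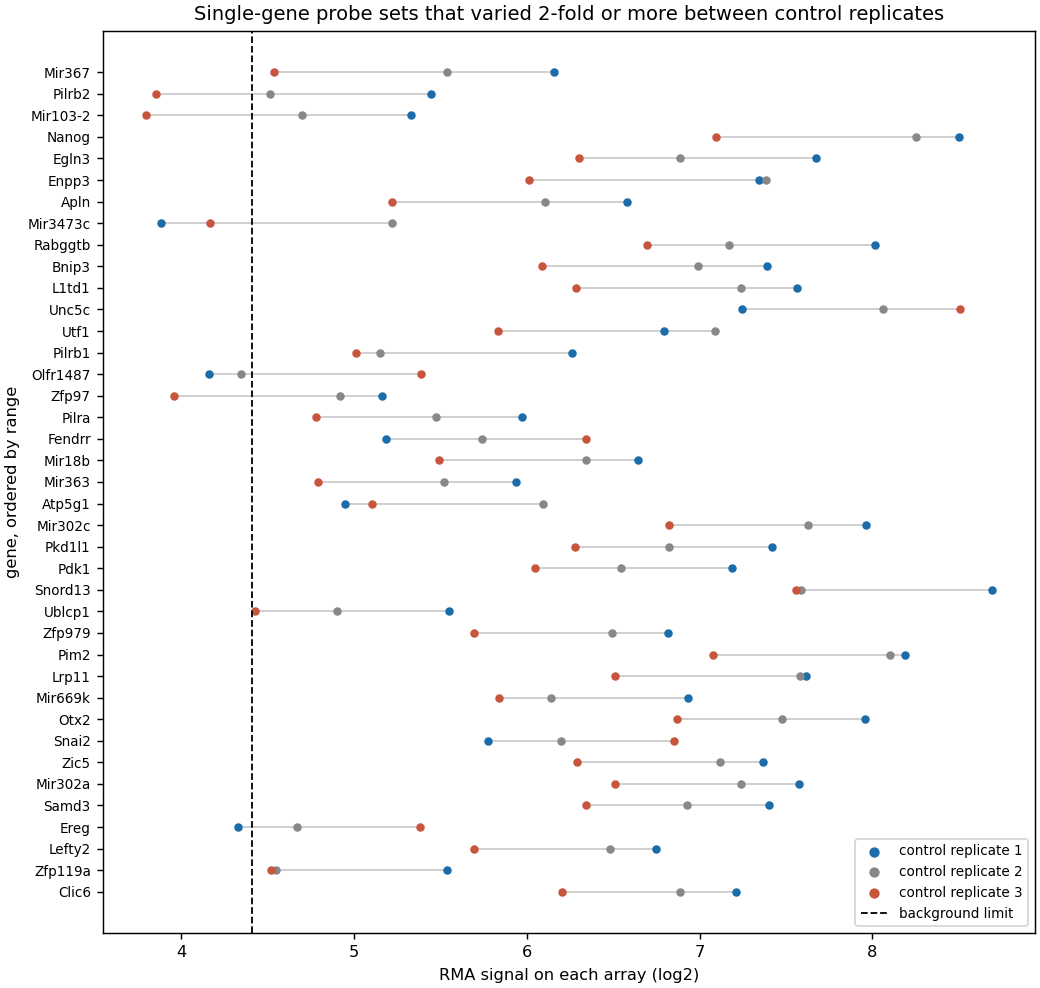
RMA signal (log2) of the 39 single-gene probe sets that were above the background limit and varied 2-fold or more between the control replicates, ordered by range, with 1 point for each of the 3 arrays joined by a grey line. Replicate 3 is at the low end for most, from Mir367 (4.53 against 6.16 on replicate 1) to Clic6 (6.20 against 7.21), and Unc5c, Fendrr, Snai2, Ereg and Olfr1487 run the other way.

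Shifts of whole lists were smaller than those of the genes above and several ran in 1 of the same 2 directions. Over all 13845 genes above the limit, the arrays lay at 0.01, 0.01 and -0.02 from the gene means at the median. The corresponding values for replicates 1, 2 and 3 were 0.25, 0.12 and -0.29 for the miRNA genes, 0.16, 0.05 and -0.23 for the node genes, 0.08, 0.09 and -0.19 for the formative and primed epiblast genes and 0.09, 0.10 and -0.17 for the core pluripotency genes. They were -0.25, 0.07 and 0.26 for extraembryonic mesoderm, -0.17, 0.03 and 0.12 for Hox and Cdx genes, and -0.18, 0.09 and 0.09 for lateral and cardiac mesoderm. The housekeeping genes lay within 0.03 of 0 on each array and the Notch genes within 0.01. At the median, core pluripotency, epiblast and node genes thus had their lowest signal on replicate 3, and Hox and extraembryonic mesoderm genes theirs on replicate 1. The naive pluripotency genes lay at -0.06, 0.05 and 0.02. For them replicate 1 was lowest for 8 of 16 and replicate 3 for 4, against 34% and 44.4% of all genes above the limit. With 1 array per culture these orders were not tested.

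**Figure D5:**
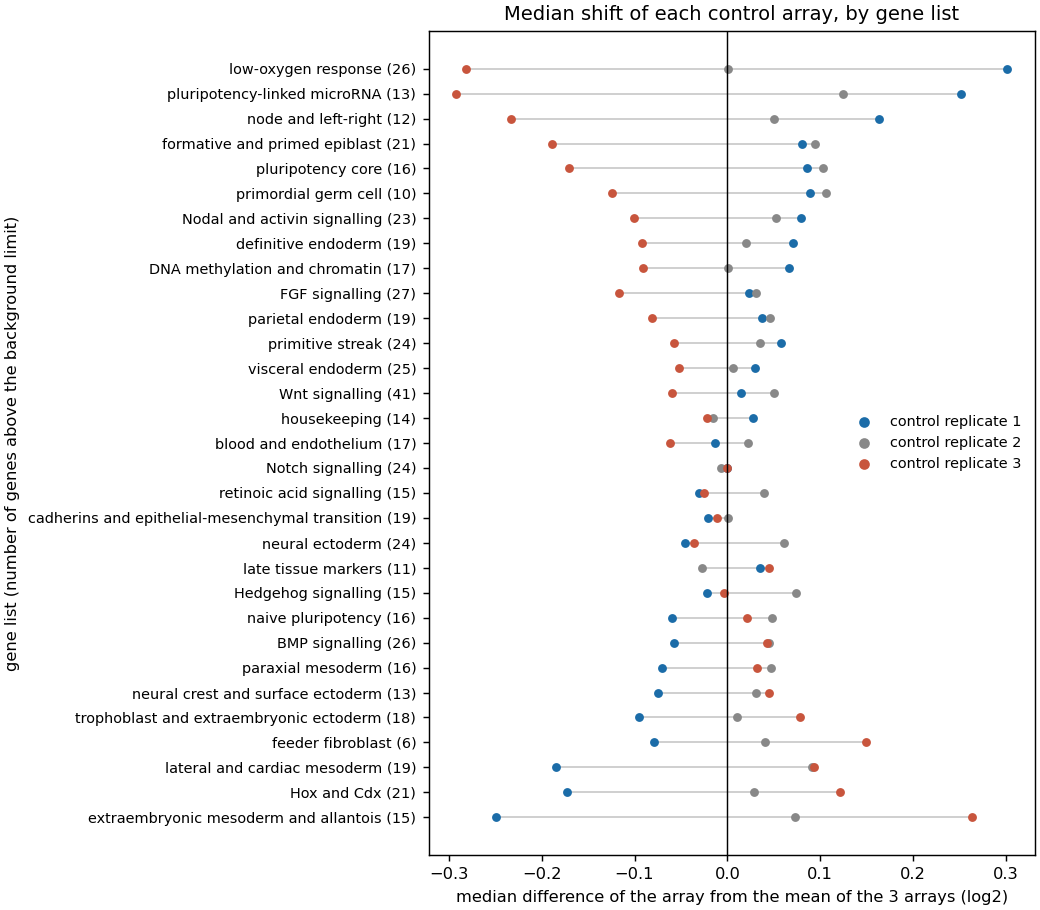
Median difference (log2) of each control array from the mean of the 3 control arrays, over the genes of each list above the background limit, for the lists with at least 5 such genes. The low-oxygen list, put together after the values were seen, and the miRNA list lie at the top with replicate 3 lowest (-0.28 and -0.29), and extraembryonic mesoderm lies at the bottom with replicate 1 lowest (-0.25).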

How the data were processed

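RNA of mouse EBs was measured on Affymetrix Mouse Gene 2.0 ST arrays, 3 per group and 9 in all, with groups and replicates as the sample labels give them. RMA in Affymetrix Expression Console 1.3 was what the authors used to make the deposited log2 signal. Per the labels and methods, this entails background correction, quantile normalization over arrays and median polish. The values were used as deposited, and no scan date or batch was used. The platform's annotation named 23521 probe sets by 1 gene and 1820 by several, while 16004 were unnamed here.

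Levels, classes and spread were computed over the 3 control arrays with Python 3.11.15, numpy 2.4.6 and pandas 2.3.3. No test was made, as there is 1 group and no contrast. The number of arrays limits the precision. The procedure was tested on simulated data. Members and lists were chosen with earlier results of these data known. Genes were named by rule: those marked as defining in a list, the 4 with the highest mean and the 4 with the widest range in each list described, the 15 highest and 20 widest of all single-gene probe sets, and members whose class differs from most of their list. Further members were named after their values were seen, to show the range of a list. The lists of low-oxygen genes and of the Mir106a-363 cluster were added after the values were seen.

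Alternatives were the 90th and 99th percentiles or other gene families for the background limit, a margin of 2 log2 units, a range of 1.5-fold or a bin-wise SD for variable, arrays centred on their medians, single-gene probe sets only, a mean over the probe sets of a gene, and each array left out.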

Additional observations from a re-analysis of the deposited data

How the results depend on the processing

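No paired analysis was possible because a single group was described and its values come from no test. The background limit was 3.95 at the 90th percentile of the receptor probe sets, 5.53 at the 99th and 5.31 with defensin, keratin-associated, trace amine and taste receptor genes. Of 25341 named probe sets, 7104 were well expressed at the 99th percentile in place of 10841. Of the 555 listed genes, 57 were near background at the 90th percentile, 231 at the 99th and 212 with the other families, in place of 109, and 4 genes, at most, passed from well expressed to near background. The 46 variable probe sets became 518 with a range of 1.5-fold and 787 with the SD set against probe sets of like signal, and the 11 variable listed genes became 60 and 87. With 1 control array left out, 4 to 42 named probe sets and 0 to 10 listed genes were variable, the lowest counts being those without replicate 3. A range over 2 arrays cannot exceed that over 3, which lowers these counts by construction. Leaving out an array gave 10823 to 11070 well expressed named probe sets. Centring the arrays gave 50 variable probe sets, which included the 46, and changed the class of 2 listed genes, and taking the mean of a gene's several probe sets changed the class of 10. Signal near the limit is where array measurements are least certain.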

Other observations

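The unnamed probe sets carried signal too. Of 16004, 4158 (26.0%) were well expressed by the same limits and 8330 (52.0%) were near background, and 591 were variable, against 46 of the 25341 named ones. Many of these features are small or noncoding transcripts or single exons in designs of this kind, but they have no gene name here and are not described further.

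Genes that tell male from female cells were low on all 9 arrays. Over these arrays Xist, the noncoding RNA of the inactive X chromosome, ran from 2.95 to 3.47, and the Y-linked genes Kdm5d from 3.13 to 3.55, Eif2s3y from 3.57 to 4.46 and Uty from 4.37 to 4.91. The methods describe the line as mainly of normal male karyotype. The X-linked gene Kdm5c ran from 8.27 to 8.53. On the control arrays Eif2s3y was at 4.46, 3.68 and 3.57. Xist, Eif2s3y and Kdm5d were near background by their control means, and Uty was between the limits at 4.68.

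The further members of the X-linked miRNA cluster that holds Mir18b and Mir363 were close to background, with Mir19b-2 at 4.38, Mir20b at 4.25 and Mir92-2 at 3.68. A probe set that names Kis2 and Mir106a together was at 6.07, 5.76 and 4.83, in the same order of arrays as Mir18b.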
